A study of Mus musculus with 12 samples.

Results

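Homeostatic microglia genes were followed through the retinae of 3 retinal degeneration (RD) mouse models. The 9 genes were found in the gene table by their symbols, out of 32867 genes. They were P2ry12, P2ry13, Tmem119, Cx3cr1, Sall1, Siglech and Gpr34, which mark resting microglia, and Csf1r and Aif1, which macrophages of any kind use and which served as the total macrophage genes.

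Microglia are the resident macrophages of the retina and brain. In the healthy retina they sit in the plexiform layers with fine moving processes, depend on signals through the CSF1 receptor, and hold a typical set of surface receptors and transcription factors. When neurons die, microglia can retract their processes, multiply and migrate towards the dying cells, and macrophages from the blood can enter the tissue. Transcripts of the resting set are known to be lowered in microglia that respond to injury, while general macrophage transcripts are kept.

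RNA was sequenced from whole retina, with 3 samples in each of 4 groups. Pde6b rd1 was taken at postnatal (PN) day 13, Pde6b rd10 at PN23 and Prph rd2 at PN29, each near its peak of photoreceptor death, and the C3H wild-type (wt) group held 1 sample at each of these days. Pde6b encodes a subunit of the rod phosphodiesterase and Prph2, the gene mutated in Prph rd2, encodes a structural protein of the outer segment. Per the study's methods Pde6b rd1, Prph rd2 and wt mice were C3H and Pde6b rd10 mice were C57Bl6/J, whereas the labels give C57BL6/J for Prph rd2, so the strain and the mutation cannot be told apart for Pde6b rd10 nor, if the labels hold, for Prph rd2. Nothing in the labels says that the 3 samples of a group came from separate animals, and p-values then measure only the spread between these samples.

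The libraries held 17049495 to 24755890 reads on genes. Pde6b was lower in Pde6b rd1 (log2 fold change -2.16 ± 0.03 SE) and Prph2 was lower in Prph rd2 (-1.06 ± 0.05), which goes with the labels, and Pde6b was -0.57 ± 0.03 in Pde6b rd10. The C3H libraries held 8 to 10 counts of Xist and 1098 to 1340 of the Y-linked Kdm5d, while Pde6b rd1 held 64914 to 83716 and 0. Prph rd2 held 37187 to 47452 counts of Xist with 521 to 620 of Kdm5d, and Pde6b rd10 held 13428 to 18861 with 774 to 1051, so libraries of these groups carried both. Sex and genotype cannot be told apart between Pde6b rd1 and C3H, and the part of sex in the other comparisons was not tested.

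The members lie on 8 chromosomes, and only P2ry12 and P2ry13 are neighbours. Positions are from GENCODE vM21 on GRCm38. P2ry12 spans chr3:59216272-59262871 and P2ry13 spans chr3:59207892-59210882, both on the minus strand, 5389 bases apart and inside the Med12l gene, which runs the other way. The upstream stretches of this pair are shown because their transcripts behaved differently in Pde6b rd10, and that of Aif1 because its fold change was the largest of the set. The sequences are from RefSeq (GRCm38.p6) and end at the base before the RefSeq transcription start. That start differs from the vM21 gene end for 2 of the genes shown. The vM21 span of Aif1 reaches chr17:35176068, so the marked letters of Aif1 lie inside it. That of P2ry12 ends at chr3:59262871, short of the stretch shown. Capitals mark the letters GAGGAA or its reverse complement TTCCTC, a form of the motif of the myeloid transcription factor PU.1. Forms without these letters were not marked, so a stretch without capitals can still hold one.
P2ry12, chr3:59262986-59263235, minus strand: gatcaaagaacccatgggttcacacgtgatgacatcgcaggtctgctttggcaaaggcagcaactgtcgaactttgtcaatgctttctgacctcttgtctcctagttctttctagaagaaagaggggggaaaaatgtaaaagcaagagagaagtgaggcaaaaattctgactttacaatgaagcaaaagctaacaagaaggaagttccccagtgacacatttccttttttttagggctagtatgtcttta
P2ry13, chr3:59210883-59211132, minus strand: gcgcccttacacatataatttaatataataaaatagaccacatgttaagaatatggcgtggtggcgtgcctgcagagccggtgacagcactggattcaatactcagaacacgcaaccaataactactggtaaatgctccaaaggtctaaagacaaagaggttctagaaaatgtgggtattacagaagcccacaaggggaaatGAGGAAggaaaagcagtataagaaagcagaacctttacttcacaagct
Aif1, chr17:35176053-35176152, minus strand: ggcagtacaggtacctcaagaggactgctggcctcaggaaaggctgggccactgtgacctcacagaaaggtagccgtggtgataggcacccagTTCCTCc

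Of the 9 members, 6 were in the promoter table, with 8 windows of 300 bases from 250 before to 50 after the start. GAGGAA was found on either strand of the P2ry13 window, 48 to 43 bases before the start, of the Aif1 window, 7 to 2 bases before the start, and of the Siglech window, where it spans the start. No window of P2ry12, Cx3cr1 or Sall1 held these letters. Of all 32851 windows, 28.3% held GAGGAA on either strand. The longer GAGGAAGT (which contains GAGGAA) was in 3.20% of all windows and the ETS-IRF composite element in 2.72%, and neither was in a window of a member.

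The remaining members were Tmem119 (chr5:113793729-113800516, minus strand), Cx3cr1 (chr9:119901616-120069879, minus), Sall1 (chr8:89027235-89044162, minus), Siglech (chr7:55768178-55778925, plus), Gpr34 (chrX:13632089-13640858, plus, inside Cask), Csf1r (chr18:61100598-61132149, plus) and Aif1 (chr17:35170991-35176068, minus). Aif1 lies 11.7 Mb from Prph2, the gene mutated in Prph rd2. Exons of Csf1r share 873 bases with Hmgxb3 on the opposite strand, exons of Cx3cr1 share 78 bases with Gm33858 and exons of P2ry12 share 9 bases with Med12l. The libraries were directional, but the strand setting of the counting is not given in the sources used here. Hmgxb3 differed from C3H by -0.16 ± 0.05 in Pde6b rd10 on the log2 scale, Med12l by -0.12 ± 0.05, and Gm33858 held at most 5 counts in any library. The deposited FPKM of Csf1r implies a length of 4885 bases, against 5774 exon bases in vM21, and for the other members both lengths were equal. None of the 12510 circRNAs in the deposited table had a member as its host gene, which gave 0 circRNAs to compare.

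Per transcript length, Csf1r was the most abundant member in wt retina. Its mean FPKM (reads scaled by transcript length and by the reads on genes) was 4.08 ± 0.22 (SD, n = 3), followed by P2ry12 at 3.04 ± 0.11 and Cx3cr1 at 2.65 ± 0.16, and the samples of these 3 did not overlap. Gpr34 stood at 1.14 ± 0.14 FPKM, above Sall1 at 0.875 ± 0.061. Sall1, Tmem119 (0.720 ± 0.154), P2ry13 (0.573 ± 0.199), Siglech (0.372 ± 0.026) and Aif1 (0.258 ± 0.160) each overlapped with the next in order. In Pde6b rd10 the order changed. Csf1r reached 12.4 ± 0.54 FPKM and Cx3cr1 7.07 ± 0.21, while P2ry12, at 2.43 ± 0.36, overlapped with Gpr34 at 2.13 ± 0.10.

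**Figure D1:**
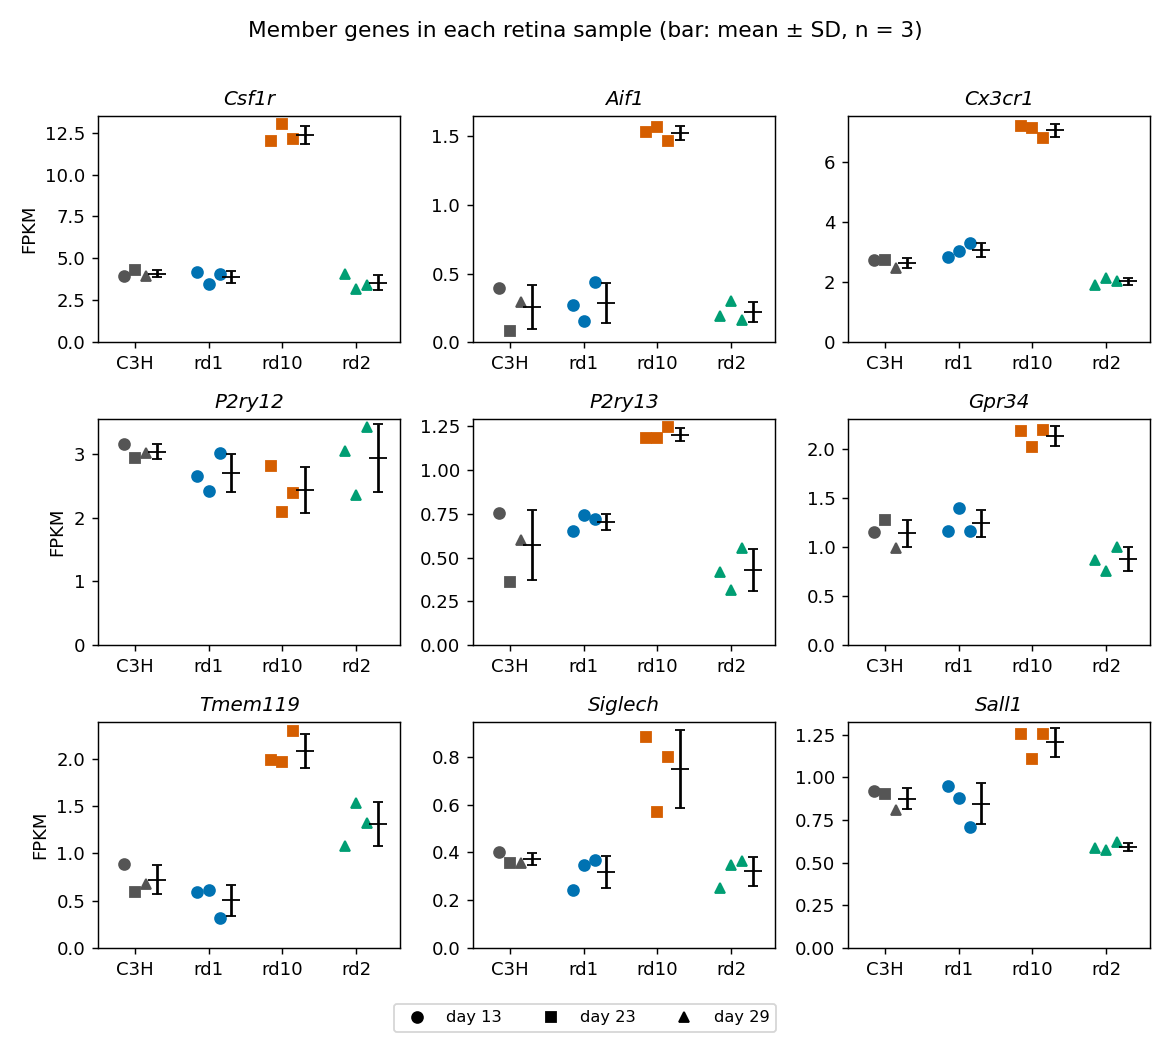
FPKM of the 9 members in each of the 12 retina samples, 1 panel a gene, with the 4 groups on the x axis, the postnatal day as the symbol, and the mean ± SD (n = 3) as the black bar. In 7 panels all 3 Pde6b rd10 samples lie above the C3H samples with a fold change over 1.5, and Sall1 is higher by less. For P2ry12 the Pde6b rd10 samples lie between 2.1 and 2.81, below the C3H samples at 2.94 to 3.17. The share of all genes that lie apart like this was not counted.

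In Pde6b rd10, 7 of the 9 members rose and 0 fell, where 23.9% of the 18704 tested genes were called, 15.9% as higher and 8.08% as lower. Here and below, called means an unadjusted p under 0.05 in edgeR together with a difference of 1.5-fold or more. The median log2 fold change was 1.04 over the members and -0.0025 over all genes tested. Aif1 is among the 7 and passed the filter on low counts here only through Pde6b rd10. Of the 7 resting genes alone, 5 rose and 0 fell, with a median of 0.97. In whole retina, fewer cells of a type and less RNA per cell cannot be told apart, nor can more of either. Only 1 C3H sample was of PN23, the day of Pde6b rd10. Against it, all 3 Pde6b rd10 samples were higher for every member but P2ry12. The log2 ratios of CPM ran from 0.42 for Sall1 to 4.22 for Aif1, and P2ry12 was at -0.27. The part of age in these changes was not tested.

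Both total macrophage genes rose. Csf1r, the receptor for the survival factors CSF1 and IL-34, had FPKM values of 3.95, 4.33 and 3.97 in C3H and 12, 13 and 12.1 in Pde6b rd10. Aif1, which encodes the actin-binding protein IBA1 used to stain microglia, had 0.395, 0.0815 and 0.297 FPKM in C3H and 1.53, 1.57 and 1.47 in Pde6b rd10. The groups did not overlap for either gene. Csf1r was 2.91-fold higher (log2 1.54 ± 0.06 SE, adjusted p = 1.7e-14) and Aif1 5.85-fold higher (2.55 ± 0.33, adjusted p = 1.6e-06, edgeR). The Aif1 value rests on 3 to 12 counts per C3H library, too few to pass the filter without Pde6b rd10. The C3H sample of PN23, the day of Pde6b rd10, was the one with 3.

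Cx3cr1, the receptor for the neuronal chemokine fractalkine, followed Csf1r closely. It had 2.73, 2.75 and 2.46 FPKM in C3H and 7.21, 7.16 and 6.82 in Pde6b rd10, so every mutant sample was far above every control. The fold change was 2.56 (log2 1.36 ± 0.07, adjusted p = 2.2e-12, edgeR). Its ligand gene Cx3cl1 rose by 0.61 ± 0.07 on the log2 scale. The CSF1 receptor ligand genes Csf1 and Il34 rose by 2.15 ± 0.11 and 0.88 ± 0.14. Thus 3 of 3 ligand genes of these receptors were called as higher, where 15.9% of all tested genes were.

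The nucleotide and lipid receptors did not move together. P2ry12, the ADP receptor that guides microglial processes to sites of injury, had 3.17, 2.94 and 3.01 FPKM in C3H and 2.81, 2.1 and 2.40 in Pde6b rd10. It was the only member with a negative estimate, with all 3 mutant samples under the controls. The log2 fold change was -0.36 ± 0.12, which is 0.779 times the C3H level, with an adjusted p of 0.0156 (edgeR), and was not called because it stayed under 1.5-fold. Over 17 alternatives the estimate stayed negative, from -0.48 to -0.24, with an adjusted p from 0.0061 to 0.162.

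P2ry13, a second ADP receptor, had 0.757, 0.362 and 0.599 FPKM in C3H and 1.18, 1.18 and 1.25 in Pde6b rd10. Gpr34, a receptor for lysophosphatidylserine, had 1.16, 1.27 and 0.990 FPKM in C3H and 2.18, 2.02 and 2.2 in Pde6b rd10. Neither gene overlapped between the groups, and Gpr34 is X-linked, in libraries that differed in Xist. P2ry13 was 2.06-fold higher (log2 1.04 ± 0.22, adjusted p = 0.00053) and Gpr34 1.79-fold higher (0.84 ± 0.16, adjusted p = 0.00013, edgeR). Of 7 tested P2Y receptor family genes, 4 rose and 0 fell, where 15.9% of all tested genes were called as higher. The 7 include the members P2ry12, P2ry13 and Gpr34. Those that rose outside the members were P2ry2 (2.72 ± 0.23) and P2ry6 (2.02 ± 0.25).

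P2ry13 and its neighbour P2ry12 thus went apart within the same libraries. There were 24.2, 12.7 and 20.3 counts of P2ry13 per 100 of P2ry12 in C3H and 42.1, 56.4 and 52.0 in Pde6b rd10, with 1 added to each count. In Pde6b rd1 the numbers were 24.8, 31.1 and 24.2, and in Prph rd2 they were 14.1, 13.8 and 16.5. The 4 groups differed (p = 0.0012, exact permutation test of the between-group sum of squares, not adjusted), and Pde6b rd10 did not overlap with any other group. This pair was compared after the values had been seen.

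Tmem119, a membrane protein used as a microglia marker in neural tissue, had 0.892, 0.593 and 0.676 FPKM in C3H and 1.99, 1.96 and 2.29 in Pde6b rd10. Siglech, a sialic acid binding lectin of microglia that plasmacytoid dendritic cells also carry, had 0.402, 0.357 and 0.358 in C3H and 0.884, 0.568 and 0.798 in Pde6b rd10. The groups were separate for both genes, although the lowest Siglech sample of Pde6b rd10 stood well under the other two. Tmem119 was 2.80-fold higher (log2 1.48 ± 0.18, adjusted p = 5.6e-07) and Siglech 1.96-fold higher (0.97 ± 0.22, adjusted p = 0.00096, edgeR). Of the plasmacytoid dendritic cell genes, 1 of 5 in the table was tested, Ccr9 (0.13 ± 0.29), and 0 were called, and the summed level of the 5 genes was 0.76 to 1.06 CPM (counts scaled to library size) in C3H and 0.96 to 1.30 in Pde6b rd10.

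Sall1, a transcription factor needed for microglial identity, had 0.919, 0.901 and 0.805 FPKM in C3H and 1.25, 1.11 and 1.25 in Pde6b rd10. The mutant samples were all higher, but by 1.33-fold (log2 0.41 ± 0.13, adjusted p = 0.0098, edgeR), which was under the fold threshold. The receptor gene Tgfbr2, which takes part in the TGF-beta signal that microglia need, rose by 0.88 ± 0.08. Of 12 TGF-beta pathway genes, 4 rose and 0 fell, where 15.9% of all tested genes were called as higher. The others that rose were Nrros (2.12 ± 0.15), Itgav (0.74 ± 0.04) and Tgfb1 (0.78 ± 0.13), and the median of the 12 was 0.34.

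**Figure D2:**
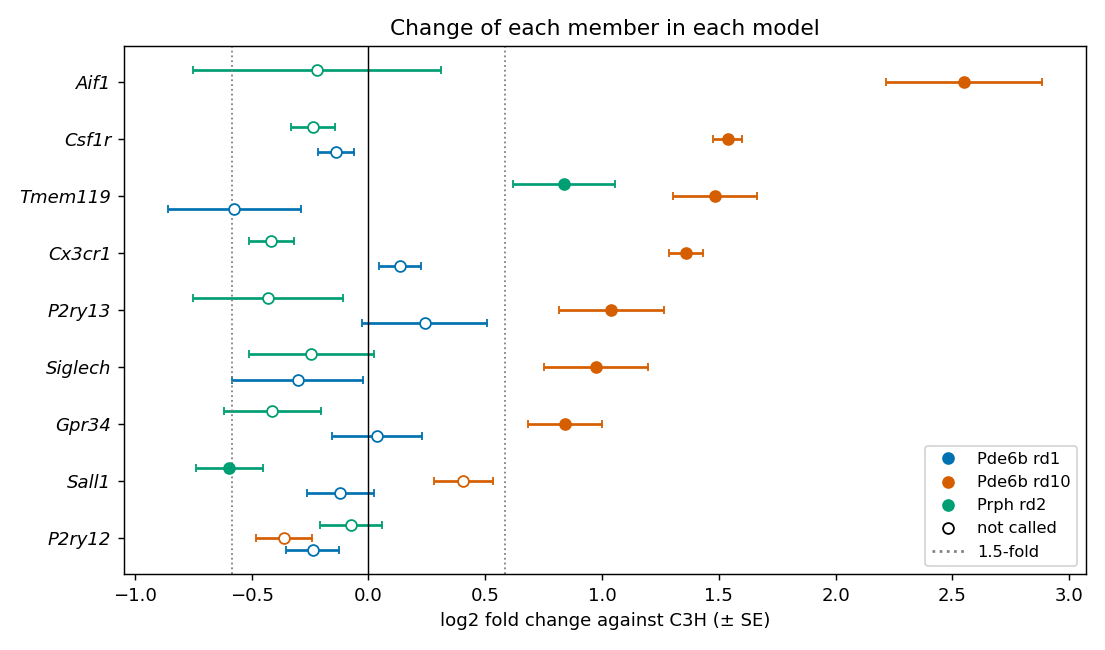
Log2 fold change against C3H (x axis) of each member (y axis) in the 3 models, with bars of 1 SE from edgeR. Filled points were called and open points were not, and dotted lines mark 1.5-fold. In Pde6b rd10 the values run from -0.36 for P2ry12 to 2.55 for Aif1. In Pde6b rd1 all tested members are open and Aif1 was not tested. In Prph rd2 Tmem119 is filled above 0 and Sall1 below.

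The counts of the 7 resting genes were then set against those of Csf1r in the same library, which moves all 7 alike and gives each one's change relative to a total macrophage gene. P2ry12 gave 41.9, 35.5 and 39.7 counts per 100 of Csf1r in C3H, 33.5, 36.6 and 39.0 in Pde6b rd1, and 39.4, 38.7 and 52.6 in the Prph rd2 libraries. In Pde6b rd10 it gave 12.3, 8.49 and 10.4, which is 0.263 times the C3H ratio (a difference of -1.92 in mean log2 ratio). Pde6b rd10 thus stood apart from the other 3 groups, which overlapped.

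Sall1 gave 25.3, 22.5 and 22.1 counts per 100 of Csf1r in C3H and 11.3, 9.25 and 11.2 in Pde6b rd10, which is 0.453 times the C3H ratio. Gpr34 gave 12.8, 12.7 and 10.9 in C3H and 7.85, 6.73 and 7.85 in Pde6b rd10, which is 0.616 times. Neither gene overlapped between the pair of groups. Siglech in Pde6b rd10 was at 0.645 times the C3H ratio and Cx3cr1 at 0.881 times, without overlap, and P2ry13 was at 0.713 times with overlap. Tmem119 kept to Csf1r, with 10.9, 6.67 and 8.31 per 100 in C3H and 7.92, 7.23 and 9.03 in Pde6b rd10, so that its ratio was 0.949 times that of C3H and the samples were interspersed.

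Across the 4 groups, 5 of 7 ratios differed by the exact permutation test over 12 samples. The adjusted p, over 7 genes, was 0.0126 for P2ry12, Sall1 and Gpr34, 0.0157 for Tmem119 and 0.0307 for Cx3cr1, and it was 0.146 for P2ry13 and 0.195 for Siglech. For a single model against C3H, 3 samples against 3 cannot give a two-sided exact p under 0.1, and the 7 pairs without overlap reached that value (0.3 after adjustment over 21 pairs). They were P2ry12, Sall1, Gpr34, Siglech and Cx3cr1 in Pde6b rd10 and Tmem119 and Sall1 in Prph rd2. Cx3cr1 lost its call across the 4 groups when any of 9 of the 12 samples was left out (adjusted p up to 0.138, without Pde6b rd1 replicate 2), and Tmem119 lost it without Pde6b rd1 replicate 3 (0.0507). P2ry13 gained a call without C3H replicate 2 (0.0293).

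**Figure D3:**
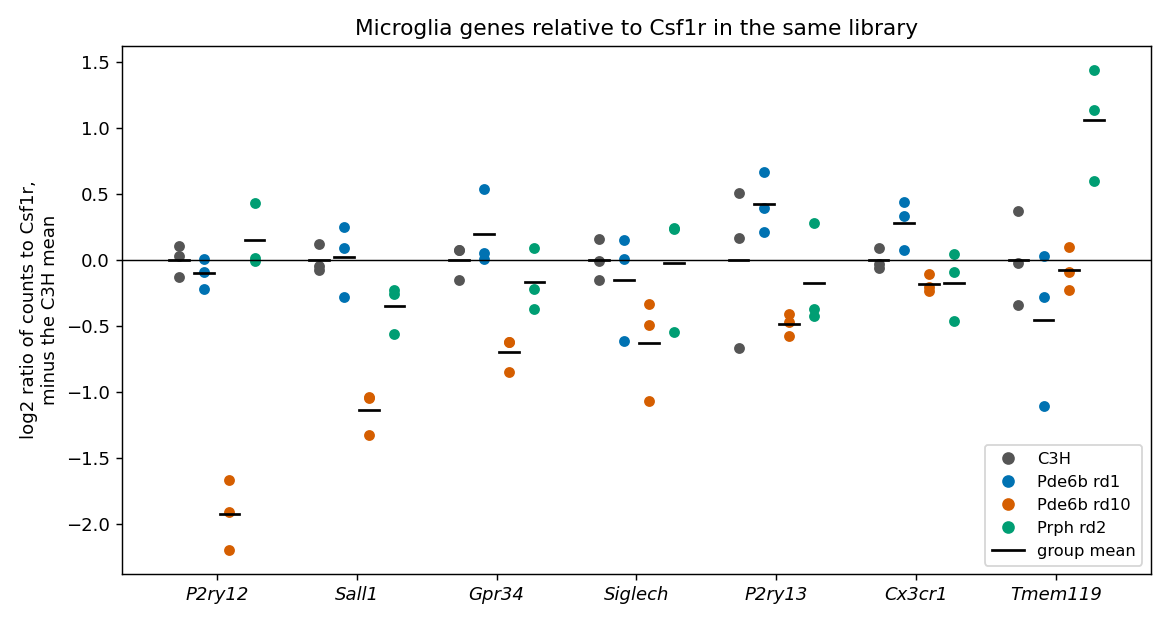
Log2 ratio of the counts of each resting microglia gene to those of Csf1r in the same library (y axis, minus the C3H mean), with 1 point a library and the group mean as a bar. The Pde6b rd10 mean is -1.92 for P2ry12, -1.14 for Sall1 and -0.08 for Tmem119, and the Prph rd2 mean for Tmem119 is 1.06.

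With Aif1 in place of Csf1r, the 7 ratios in Pde6b rd10 were all lower than in C3H, from -2.97 for P2ry12 to -1.12 for Tmem119 in mean log2 ratio. None of the 7 then differed across the 4 groups (lowest adjusted p = 0.0745, exact permutation test), with Aif1 at 3 to 12 counts in C3H. Aif1 itself gave 3.39, 0.784 and 2.60 counts per 100 of Csf1r in C3H and 4.06, 3.87 and 3.88 in Pde6b rd10, and the groups did not overlap.

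Other immune genes moved in the same libraries, where 15.9% of all tested genes were called as higher and 8.08% as lower. Of 20 pan-macrophage and leukocyte genes, 19 rose and 0 fell in Pde6b rd10, with a median of 2.57. The smallest p-values were those of Lyz2 (lysozyme, 3.98 ± 0.09), Ctss (a lysosomal protease, 2.27 ± 0.07), Ptprc (CD45, 3.50 ± 0.13) and C1qb (complement, 2.67 ± 0.11). Of 18 other homeostatic microglia genes tested, 11 rose and 1 fell, the fructose transporter gene Slc2a5 (-1.43 ± 0.35, named after its value was seen), with a median of 0.82. Of the 11, Ltc4s passed the filter in this comparison with C3H alone. Fcrls (3.72 ± 0.14), Olfml3 (2.19 ± 0.11) and Lpcat2 (0.77 ± 0.06) were among those with the smallest p. Of the activated microglia genes, Gpnmb and Spp1, which were tested in every comparison, rose by 5.02 ± 0.13 and 3.21 ± 0.12. Of the 18 genes of that list 15 passed the filter on low counts here, against 11 in Pde6b rd1 and 10 in Prph rd2, and as some passed only through their high counts in Pde6b rd10, how many of them rose is not counted. Of 8 genes for CSF1 receptor ligands and myeloid transcription factors, 7 rose and 0 fell, including Irf8 (2.22 ± 0.12), Runx1 (2.54 ± 0.16), Cebpa (2.92 ± 0.19) and Csf1.

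Many markers of other immune cells passed the filter only through Pde6b rd10, and they are given by their counts and summed levels, with no test. Ccr2, the chemokine receptor of blood monocytes, had 0 to 1 counts in C3H and 103 to 169 in Pde6b rd10, and the summed level of the 13 monocyte and neutrophil genes in the table was 8.73 to 12.1 CPM in C3H and 57.9 to 64.8 in Pde6b rd10. Mrc1, the mannose receptor of border macrophages, had 3 to 15 counts in C3H and 215 to 302 in Pde6b rd10, and the summed level of the 10 border macrophage genes was 26.6 to 28.2 CPM and 74.4 to 78.6 CPM. Ms4a7 went from 0 to 1 counts to 55 to 81. Both sums also hold genes that were tested in every comparison. Vcan, in the monocyte and neutrophil sum, differed from C3H by 2.40 ± 0.09 in Pde6b rd10 and 0.81 ± 0.11 in Pde6b rd1. Lyve1, in the border macrophage sum, differed by 0.27 ± 0.08 in Pde6b rd10 and was not called. The share of each gene was not separated, so a sum does not measure how many such cells were present. The lymphocyte gene Cd8a had 0 to 2 counts and 27 to 35, and the summed level of the 10 lymphocyte genes was 0.29 to 0.81 CPM and 2.50 to 3.30 CPM. Cell division genes rose in 1 of 9, Mki67 (0.82 ± 0.15), where 15.9% of all tested genes were called as higher. The part of these cells in the change of Csf1r, Aif1 and Cx3cr1, which they can carry as well, was not tested.

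**Figure D4:**
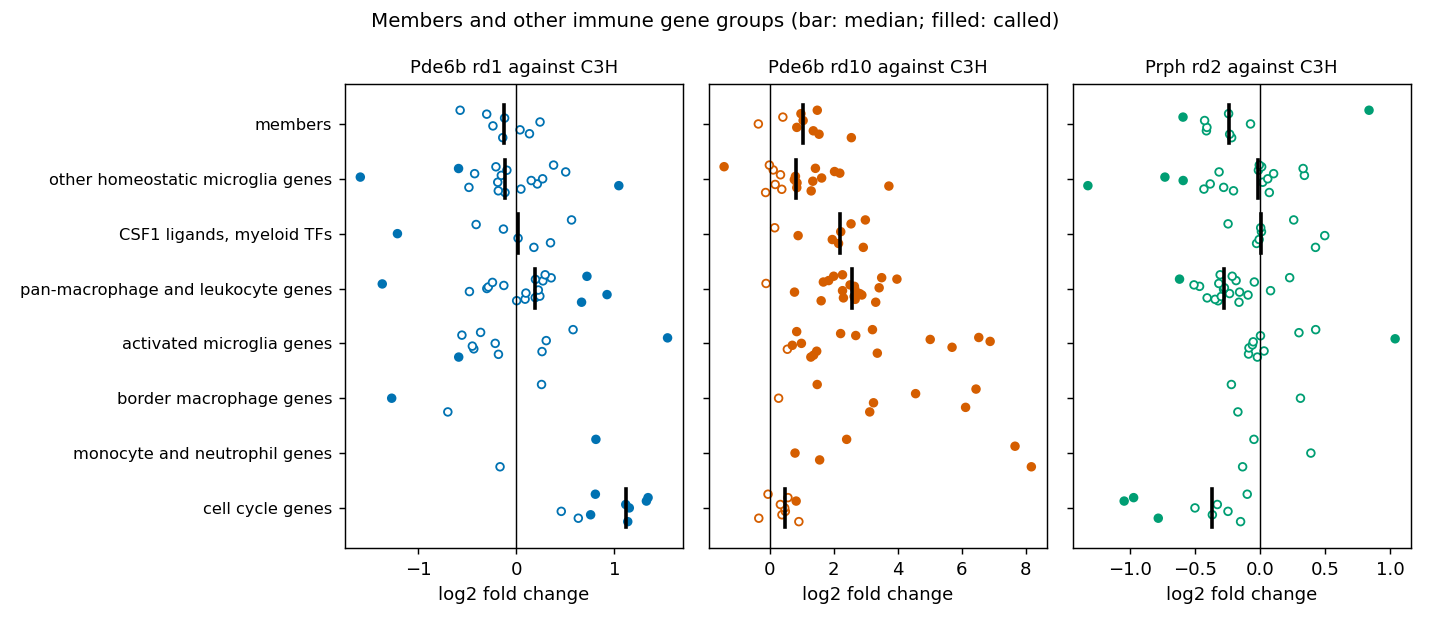
Log2 fold changes (x axis) of the members and of 7 other gene groups (y axis) in the 3 models, with 1 point a tested gene, filled where called, and the median as a bar, except for the 3 groups in which more than 1 gene passed the filter in Pde6b rd10 alone. In Pde6b rd10 the medians are 1.04 for the members, 0.82 for other homeostatic microglia genes and 2.57 for pan-macrophage and leukocyte genes. In Pde6b rd1 the cell cycle genes are the group with a median over 1, at 1.12. The x axes differ between the panels.

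In Pde6b rd1, 0 of the 8 tested members were called, where 15.0% of the 18310 tested genes were, 8.98% as higher and 6.03% as lower. Aif1, with 4 to 13 counts in Pde6b rd1, was removed by the filter on low counts. The median log2 fold change was -0.13 over the 8 members and -0.011 over all genes. At an unadjusted p under 0.05 alone the count was 1, P2ry12 (-0.24 ± 0.11, adjusted p = 0.0955, edgeR), and DESeq2 also called 0 of 9.

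Csf1r had 4.16, 3.47 and 4.05 FPKM in Pde6b rd1, around the C3H values, and differed from them by -0.14 ± 0.08 on the log2 scale (adjusted p = 0.156, edgeR). Cx3cr1 had 2.85, 3.05 and 3.31 FPKM, all above the C3H samples, with a difference of 0.13 ± 0.09 (adjusted p = 0.244). Tmem119 had 0.593, 0.608 and 0.314 FPKM, with 1 sample low, and a difference of -0.57 ± 0.29 (adjusted p = 0.11). That value of Tmem119 lay near the threshold. It was called as lower when all 12 samples shared the fit (adjusted p = 0.0768), with the replicate number as a block (-0.59), and without C3H replicate 2 (-0.71), Pde6b rd1 replicate 1 (-0.72) or Pde6b rd1 replicate 2 (-0.71), and it was -0.33 without Pde6b rd1 replicate 3. Over 17 alternatives its adjusted p ran from 0.0768 to 0.378.

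The remaining estimates in Pde6b rd1 lay between -0.30 for Siglech and 0.24 for P2ry13. The counts over the other lists are to be read against the 15.0% of all tested genes that were called, and those of the other homeostatic, pan-macrophage and P2Y receptor genes lay near it. The ligand genes Il34 and Cx3cl1 fell by 1.21 ± 0.17 and 0.76 ± 0.06 on the log2 scale, from 93 to 101 counts to 35 to 49 for Il34, so that 2 of 3 ligand genes were lower. Of 17 tested other homeostatic microglia genes 1 rose, Fcrls (1.05 ± 0.23), and 2 fell, Mef2c (-1.59 ± 0.07), a transcription factor that neurons also express, and Selplg (-0.59 ± 0.26). Of 19 pan-macrophage and leukocyte genes 3 rose, Cd68 (0.93 ± 0.25), Trem2 (0.72 ± 0.21) and Adgre1 (0.67 ± 0.24), and 1 fell, Hcls1 (-1.37 ± 0.14). Cell division genes rose in 7 of 9, with Top2a at 1.34 ± 0.14 and Mki67 at 1.33 ± 0.15, genes that any dividing cell uses. Only 1 C3H sample was of PN13, the day of Pde6b rd1, and the part of age in this rise was not tested. Of 6 tested P2Y receptor family genes 1 fell, P2ry14 (-0.82 ± 0.30), and of 12 TGF-beta pathway genes 0 passed both thresholds, while 9 had an adjusted p under 0.05. At that adjusted p alone, 7906 of the 18310 tested genes passed. Ccr2 had 0 counts in the Pde6b rd1 libraries.

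The Pde6b rd1 samples were of PN13, and 1 C3H sample was of that day. Against that sample, Tmem119 was lower in all 3 mutant samples (log2 ratio of CPM -0.82), while Csf1r was mixed (-0.02). A fit with that single control, assumed to vary like the mutant samples, called Tmem119 as lower (-0.90, adjusted p = 0.107, edgeR) and none of the other members. There is no replicate check of the control of that day.

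In Prph rd2, 1 of the 9 members rose and 1 fell, where 4.57% of the 18581 tested genes were called, 2.68% as higher and 1.89% as lower. Tmem119 had 1.08, 1.53 and 1.32 FPKM against 0.892, 0.593 and 0.676 in C3H. Sall1 had 0.586, 0.571 and 0.619 FPKM against 0.919, 0.901 and 0.805. The groups did not overlap for either gene. Tmem119 was 1.79-fold higher (log2 0.84 ± 0.22, adjusted p = 0.0255) and Sall1 was 0.662 times the C3H level (-0.60 ± 0.14, adjusted p = 0.017, edgeR).

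The Sall1 value lay at the fold threshold, and the call was lost without C3H replicate 1 (-0.56), C3H replicate 2 (-0.57) or Prph rd2 replicate 2 (-0.57). Tmem119 was called without each of the 6 samples in turn, from 0.71 to 1.01. Relative to Csf1r, Tmem119 gave 12.8, 22.9 and 18.6 counts per 100 in Prph rd2, or 2.08 times the C3H ratio, and Sall1 gave 15.7, 19.5 and 19.9, or 0.785 times.

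Cx3cr1 had 1.90, 2.13 and 2.06 FPKM in Prph rd2, all under the C3H samples, and was 0.750 times the C3H level (-0.42 ± 0.09, adjusted p = 0.0126, edgeR), under the fold threshold. Csf1r had 4.06, 3.20 and 3.39 FPKM, with 1 sample within the C3H range, and differed by -0.24 ± 0.09 (adjusted p = 0.140). P2ry12 had 3.05, 2.36 and 3.42 FPKM, spread on both sides of C3H, and differed by -0.08 ± 0.13 (adjusted p = 0.791). The other 4 members had estimates between -0.43 for P2ry13 and -0.22 for Aif1. The median over the members was -0.24, and -0.0012 over all genes.

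Other homeostatic microglia genes in Prph rd2 had 0 higher and 3 lower of 17 tested. These were Mef2c (-0.73 ± 0.08), Fcrls (-1.33 ± 0.34), with 9 to 17 counts against 18 to 39 in C3H, and Hpgds (-0.59 ± 0.24). Of all tested genes, 2.68% were called as higher and 1.89% as lower, and the counts here are to be read against these shares. Of 20 pan-macrophage and leukocyte genes 0 rose and 1 fell, Lyz2 (-0.62 ± 0.20). Gpnmb, a gene of activated phagocytes, rose (1.04 ± 0.26) as the only 1 of 10 activated microglia genes tested. Of the ligand genes 0 of 3 were called, with Il34 at 0.50 ± 0.13 and Cx3cl1 at 0.26 ± 0.07. Cell division genes fell in 3 of 9, among them Mki67 (-1.05 ± 0.22) and Top2a (-0.98 ± 0.26). Only 1 C3H sample was of PN29, and the part of age in this fall was not tested.

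The Prph rd2 samples were of PN29. Against the C3H sample of that day, Tmem119 was higher in all 3 (log2 ratio of CPM 0.95) and Sall1 lower in all 3 (-0.44). In a fit with that single control, which takes the spread from the 3 mutant samples and assumes that the control varies like them, Tmem119 was called (adjusted p = 0.235, edgeR) and Sall1 was not.

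The 2 Pde6b models were compared directly, from 1 fit of all 12 samples, since both carry a mutation of the same gene. In Pde6b rd10, 7 of 9 members were higher than in Pde6b rd1 and 0 were lower, where 28.8% of the 19616 tested genes were called, 17.6% as higher and 11.2% as lower. Tmem119 differed by 2.08 ± 0.22 on the log2 scale (4.23-fold, adjusted p = 9.1e-08), Csf1r by 1.71 ± 0.08 (3.26-fold, adjusted p = 4.6e-13) and Siglech by 1.30 ± 0.25 (2.45-fold, adjusted p = 0.00014, edgeR). Cx3cr1 differed by 1.25 ± 0.08, Gpr34 by 0.83 ± 0.16, P2ry13 by 0.82 ± 0.24 and Aif1 by 2.42 ± 0.38. Aif1 passed the filter on low counts in this fit only through Pde6b rd10. P2ry12 differed by -0.10 ± 0.14 (adjusted p = 0.588). Sall1 differed by 0.55 ± 0.13 (adjusted p = 0.0011), under the fold threshold, and passed it without Pde6b rd1 replicate 1 (0.65) or Pde6b rd10 replicate 2 (0.61). The models also differed in age, strain and sex of the libraries, which cannot be told apart from the mutation here.

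Summed over the 9 members, the level was 49.2 to 52.8 CPM in C3H, 49.1 to 53.0 in Pde6b rd1, 41.8 to 45.9 in Prph rd2 and 120.6 to 123.0 in Pde6b rd10. The samples of Prph rd2 lay under and those of Pde6b rd10 above all others, while C3H and Pde6b rd1 overlapped. The 7 resting genes summed to 29.4 to 32.9 CPM in C3H and 57.1 to 61.4 in Pde6b rd10, and Csf1r with Aif1 to 19.8 to 21.3 and 61.0 to 65.9.

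Outside the gene lists, the genes with log2 fold changes nearest to the medians of the members in the 3 comparisons (-0.13, 1.01 and -0.33, over the 8 members tested in all 3) were Rhog, Anxa2, Rnf144b, Gm10516 and Efna1. They were taken by Euclidean distance among 14259 genes with a mean FPKM of at least 1. Rhog was at -0.16, 1.03 and -0.34 in the order Pde6b rd1, Pde6b rd10, Prph rd2, a distance of 0.040, and Anxa2 at -0.12, 1.08 and -0.29, a distance of 0.080. Nearness in 3 values that share their controls is a description only.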

How the data were processed

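Whole-retina total RNA was depleted of ribosomal RNA and made into directional libraries. Low-quality and adapter reads were removed by the authors, the rest was aligned to GRCm38, and HTSeq 0.11.2 gave the deposited raw gene counts. The deposited FPKM values are those counts divided by the authors by gene length and by the reads on genes. The deposited circRNA junction counts, and the TPM the authors made by scaling them to all circRNA junction reads, were searched only for host genes among the members. Counts were tested over the whole table with edgeR 4.0.16 (quasi-likelihood test, TMM, filterByExpr, Benjamini-Hochberg adjustment), each model against C3H. Tested genes were called at the study's thresholds, p under 0.05 and 1.5-fold. On simulated data with 100 changed genes, 92 to 98% of those changed 2-fold and 93 to 99% of those changed 4-fold were found in the 3 comparisons with C3H. These shares are over all the changed genes, not over genes with counts as low as those of several members. Ratios within a library used log2(count + 1). Alternatives were limma 3.58.1, DESeq2 1.42.0, other scalings and filters, and leaving out samples. Named genes were the members, up to 4 genes a list with the smallest p, and genes overlapping a member; a gene that this rule selects is not reported here. The members and lists were chosen with earlier results of these data known. Reads are not independent molecules, so precision from counts covers counting error only.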

Additional observations from a re-analysis of the deposited data

Results flagged for a closer look

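The difference from C3H was not the same in both Pde6b models for 7 members, by the edgeR contrast of Pde6b rd10 with Pde6b rd1, in which age, strain and sex of the libraries cannot be told apart from the mutation. On the log2 scale, the models differed by 2.42 for Aif1, 2.08 for Tmem119, 1.71 for Csf1r, 1.30 for Siglech, 1.25 for Cx3cr1, 0.83 for Gpr34 and 0.82 for P2ry13, and in each case Pde6b rd10 was the higher. The 7 are the members called in that contrast, in which 28.8% of the 19616 tested genes were called, 17.6% as higher. Of them, Aif1 passed the filter on low counts only through Pde6b rd10. All 3 Pde6b rd10 samples lay above all 3 Pde6b rd1 samples in FPKM for these 7 genes. The same held for Sall1, which was not called (1.11 to 1.25 against 0.710 to 0.948 FPKM). How many of all genes separate in this way was not counted. The 7 were picked by their call in the same contrast, so their separation is no further support.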

How the results depend on the processing

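Over all alternatives tried, 0 called members reversed their direction. In Pde6b rd10 against C3H, 7 members were called under every alternative but 2: limma on log2(FPKM + 1) called 4, without P2ry13, Gpr34 and Siglech, and an adjusted p under 0.05 with no fold threshold gave 8 higher and 1 lower (P2ry12). The same limma fit called 4 members in Pde6b rd10 against Pde6b rd1 and 0 in Prph rd2, where log2(FPKM + 0.1) called 1. In Pde6b rd1, 1 member (Tmem119, lower) was called with all 12 samples in 1 fit and with only the C3H sample of the same day, where the lone control is assumed to vary like the mutant samples. Prph rd2 against its same-day C3H sample called 1. Leaving out 1 sample gave 0 to 1 called members in Pde6b rd1, 7 to 7 in Pde6b rd10, 1 to 2 in Prph rd2 and 7 to 8 in Pde6b rd10 against Pde6b rd1. The ratio to Csf1r differed across the groups for 0 genes with Aif1 as the reference, and for 3 to 5 when 1 sample was left out. With the replicate number as a block, 1 member was called in Pde6b rd1 (Tmem119, -0.59), 7 in Pde6b rd10 and 2 in Prph rd2. Same-numbered samples correlated at 0.061 to 0.153 in Pde6b rd1 and C3H, each best with its own number. In the other comparisons with C3H they correlated at most at 0.062. Between Pde6b rd10 and Pde6b rd1 the values were -0.036, 0.113 and 0.135 for replicates 1, 2 and 3. Whether same-numbered samples share more than a number was not tested. The cause of the shifts between alternatives was not tested. Over all genes, limma on log2(FPKM + 1) called 1180, 2192, 174 and 3046 genes where edgeR called 2749, 4479, 850 and 5644; in Prph rd2 no filter on low counts gave 1300, log2(FPKM + 0.1) 1280 and leaving out Prph rd2 replicate 2 gave 1435. An adjusted p under 0.05 alone gave 7906, 10115, 1802 and 11224. Low counts limit Aif1 most.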
